A study of Homo sapiens with 15 samples.

Results

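The genes described here belong to the families whose names mark DNA repair and DNA polymerases. Their RNA was followed over 48 h after epidermal growth factor (EGF) in H1975, a cell line from a human non-small cell lung cancer. A named gene was a member when its symbol began with FANC, XRCC, BRCA, MSH, MLH or PARP, or with RAD and a number (RAD51AP1 left out), or was POL followed by A, B, D, E, H, I, K, L, M, N or Q and an optional number. A symbol with several probe sets is shown by the probe set that was brightest on average over the 15 arrays. The rule found 35 members among 14675 named genes, on 41 of 39937 probe sets, and did not use any difference between times. Of 74 symbols sorted by role for this purpose, 30 were measured under a name. No gene of a BRCA protein, of a FANC protein or of a replicative polymerase was among them, and those genes were not analysed here. The other 5 members fit the rule by their name and were put in no role group.

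All cells had been kept overnight without serum and then received EGF at 50 ng/ml in medium without serum. The 15 arrays (Affymetrix Human Gene 2.0 ST) came from 0.5 h (2 arrays), 24 h (3 arrays), 48 h (3 arrays) and from 1, 2, 4, 6, 8, 12 and 18 h (1 array each). The 18 h array was used as labelled, although the protocol text does not list that time. No unstimulated cells were analysed here, so time after EGF and time without serum cannot be told apart. The labels do not say whether arrays of one time came from separate cultures, so p-values measure only the spread between these arrays, which may be technical.

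The values are SCAN scores, which correct each array on its own for the base composition of its probes and stand on a log scale. A score is set within its array, so a difference describes a gene against the rest of that array, and the scores of separate genes are not compared with each other. Differences are given in SCAN units, later time minus earlier time, with the standard error (SE) of limma and p-values adjusted by Benjamini-Hochberg over all 14675 genes. Genes with an adjusted p under 0.05 are written of as called. Array medians over the named genes ran from 0.402 to 0.435, with the lowest on the 2 h array. Some members had their lowest score of the 8 arrays to 12 h on that array, and whether this was more frequent than among all named genes was not counted. The part of this array in any result was not tested beyond the fits without it. Of the epithelial markers 5 of 6 were measured, with a summed score of 9.08 to 9.37 at 0.5 h and 9.15 to 9.42 at 48 h. The sum hides changes of opposite sign. KRT7 fell by 0.17 (adjusted p = 0.0012), KRT19 rose by 0.11 (adjusted p = 0.024) and EPCAM by 0.08 (adjusted p = 0.049), and 2 were not called. The markers of lung adenocarcinoma rose to 48 h, NAPSA, a protease of the alveolar lineage, by 1.24 (adjusted p = 2.6e-12) and the lineage factor NKX2-1 by 0.20 (adjusted p = 7.8e-05), and their part in the results was not tested. The scores of VWF, DCN and CD14 of endothelium, fibroblasts and blood stayed between -0.127 and 0.173. Within this range CD14 fell by 0.11 to 48 h (adjusted p = 0.025). Of the members, 29 overlap another annotated gene, so some probe sets may also read a neighbour.

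Cells repair DNA by several routes. Homologous recombination copies an intact strand and is used mostly in S and G2 phase, while end joining, led by the Ku proteins, rejoins broken ends at any phase. Mismatch repair follows the replication fork, PARP enzymes and XRCC1 act on single-strand breaks, and translesion polymerases copy across damaged bases. Several genes of recombination and mismatch repair are known to be transcribed mostly in cycling cells.

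Between 0.5 h and 48 h, 16 of the 35 members fell, 5 rose and 14 were not called (limma). Over all named genes 13.1% were called lower and 15.5% higher, against 45.7% and 14.3% of the members. The median difference of the members was -0.08 SCAN units and that of all named genes was 0.00. The largest falls were in genes of homologous recombination, RAD54L by 0.69, XRCC2 by 0.59 and RAD54B by 0.49. The rises were smaller, between 0.10 and 0.20, in RAD1, POLI, RAD17, POLK and RAD54L2. These are bulk RNA values, so fewer cycling cells and less RNA per cell cannot be told apart. Markers of cycling cells moved the same way, with 6 of 6 lower at 48 h, MKI67 by 0.98 and MCM2 by 0.60, and a summed score of 13.4 to 13.5 at 0.5 h, 12.2 to 12.3 at 24 h and 8.30 to 8.48 at 48 h. Their part in the falls was not tested.

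**Figure D1:**
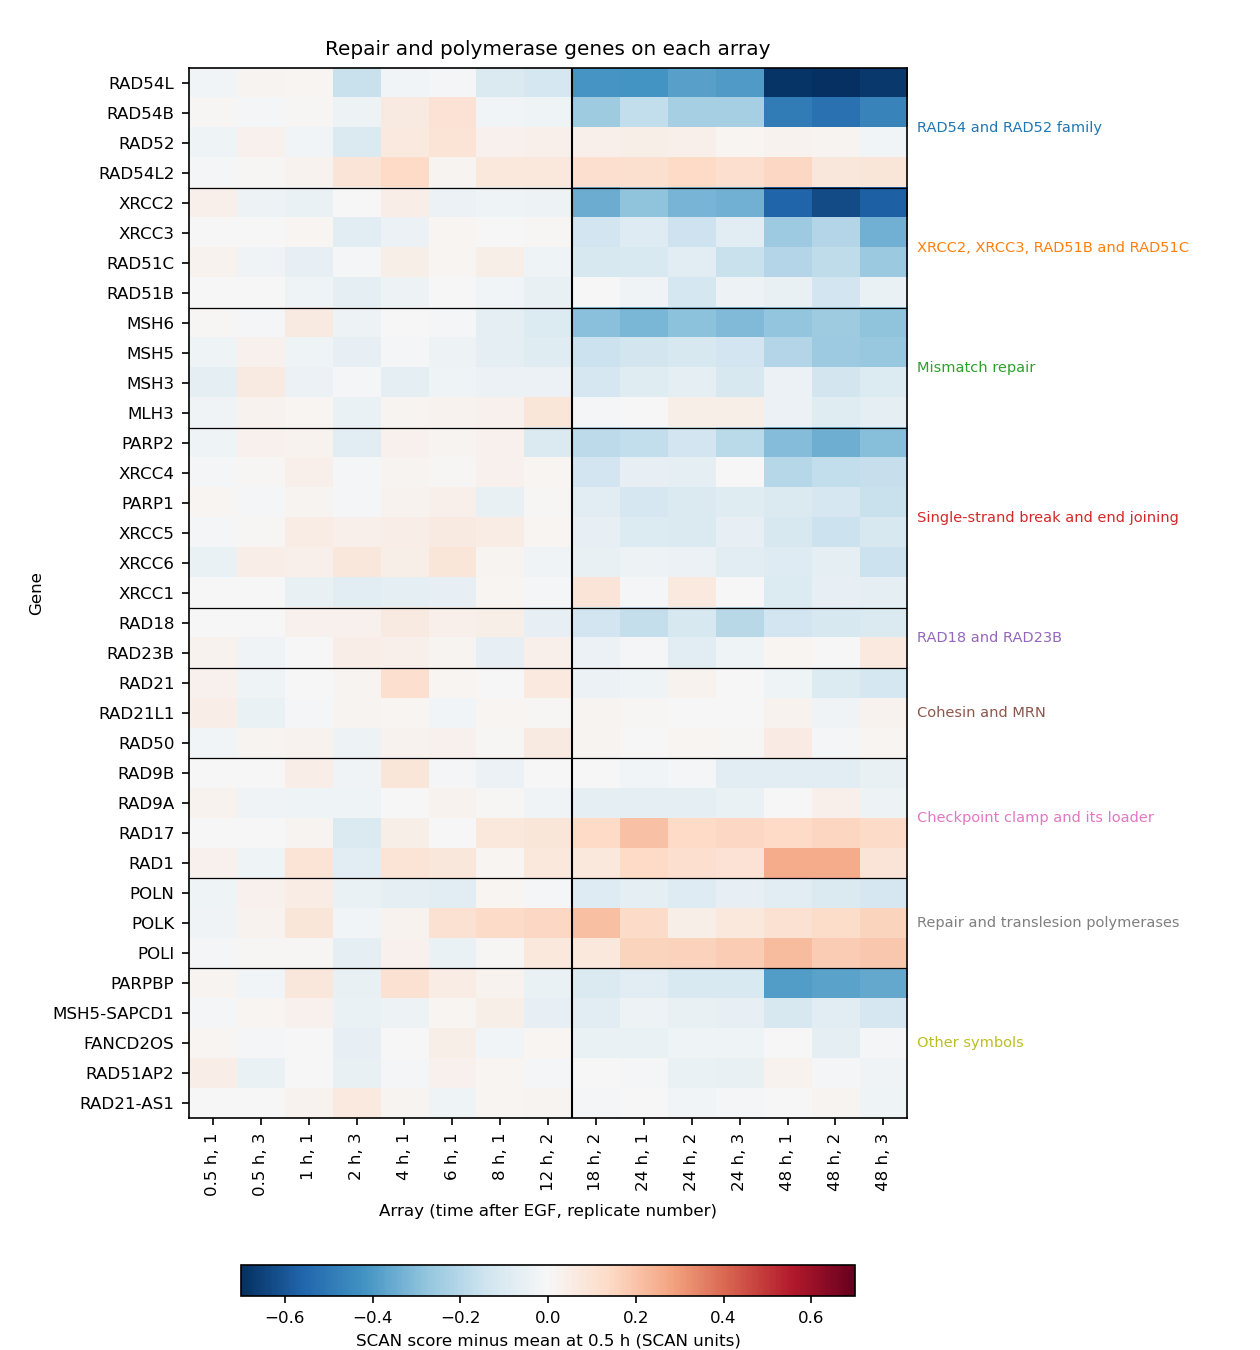
Score of each of the 35 genes (rows, grouped by role) on each of the 15 arrays (columns, by time after EGF and replicate number), minus the gene's mean at 0.5 h, in SCAN units, with blue below and red above that mean. The vertical line parts the arrays to 12 h from those at 18 h and later, where the blue of RAD54L, RAD54B, XRCC2 and MSH6 begins, and PARPBP is darkest at 48 h.

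The heat map of all members shows most of the falls from the 18 h array on. In 12 of 35 members (34.3%) all 7 arrays from 18 h on lay below all 8 arrays to 12 h, against 4.54% of all named genes. The reverse order was found in 2 members (5.71%), POLI and RAD17, against 4.55% of all named genes. This division of the arrays was chosen after the values were seen, and it carries no test. Times to 12 h rest on single arrays except 0.5 h. Of the single arrays, only that of 2 h has replicate number 3, those of 12 and 18 h have number 2, and the others have number 1. Time and replicate number cannot be told apart among these arrays.

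RAD54L encodes RAD54, a motor protein of strand exchange in recombination. Its score was 1.02 and 1.06 at 0.5 h, 1.06 at 1 h, 0.89 at 2 h, 1.02 at 4 h, 1.03 at 6 h, 0.94 at 8 h and 0.92 at 12 h. It was then 0.63 at 18 h, 0.62, 0.66 and 0.64 at 24 h, and 0.35, 0.33 and 0.37 at 48 h. The 3 replicated times did not overlap, and each step was larger than the spread between replicates. The difference was -0.40 between 0.5 h and 24 h (SE 0.03, adjusted p = 5.5e-08) and -0.29 between 24 h and 48 h (SE 0.03, adjusted p = 3.7e-07). Its relative RAD54B had 1.45 and 1.44 at 0.5 h, 1.27, 1.21 and 1.21 at 24 h, and 0.96, 0.92 and 0.98 at 48 h. The remaining arrays of RAD54B gave 1.41 to 1.55 between 1 h and 12 h and 1.20 at 18 h. The fall of RAD54B to 48 h was called (SE 0.03, adjusted p = 9.1e-10).

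RAD54L2, a chromatin remodelling ATPase that resembles RAD54 by sequence, went the other way. It scored 1.00 and 1.02 at 0.5 h, 1.12, 1.15 and 1.13 at 24 h, and 1.16, 1.09 and 1.10 at 48 h. Its arrays to 12 h, at 1.00 to 1.15 with the highest at 4 h, overlapped those from 18 h on, at 1.09 to 1.16. The rise of 0.10 to 48 h (SE 0.03, adjusted p = 0.016) lost its call without 0.5 h replicate 1 (adjusted p = 0.11), without 0.5 h replicate 3 (0.061) or without 48 h replicate 1 (0.076). RAD52, which anneals single strands, differed by 0.01 (95% interval -0.06 to 0.07) and was not called.

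XRCC2, XRCC3, RAD51B and RAD51C are related genes whose proteins form complexes that act in homologous recombination. XRCC2 scored 1.54 and 1.47 at 0.5 h, 1.46 at 1 h, 1.51 at 2 h, 1.55 at 4 h, 1.46 at 6 h, 1.48 at 8 h and 1.47 at 12 h. From then on it scored 1.16 at 18 h, 1.23, 1.18 and 1.17 at 24 h, and 0.94, 0.88 and 0.93 at 48 h. No array to 12 h was below 1.46 and none from 18 h was above 1.23. XRCC2 fell by 0.31 to 24 h (SE 0.03, adjusted p = 3.0e-06) and by a further 0.27 to 48 h (SE 0.03, adjusted p = 3.1e-06).

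XRCC3, which pairs with RAD51C, stood at 0.60 and 0.61 at 0.5 h, 0.51, 0.46 and 0.52 at 24 h, and 0.35, 0.40 and 0.27 at 48 h, so its replicated times did not overlap. RAD51C stood at 1.42 and 1.36, then 1.28, 1.31 and 1.23, then 1.18, 1.21 and 1.13 at the same times. Both fell to 48 h, XRCC3 by 0.26 (SE 0.04, adjusted p = 2.1e-05) and RAD51C by 0.22 (SE 0.03, adjusted p = 9.1e-05). RAD51B was without a call, at -0.08 (95% interval -0.15 to 0.00, adjusted p = 0.13). Of these 4 genes 3 fell and none rose, against 13.1% lower and 15.5% higher over all named genes, and their median difference was -0.24.

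**Figure D2:**
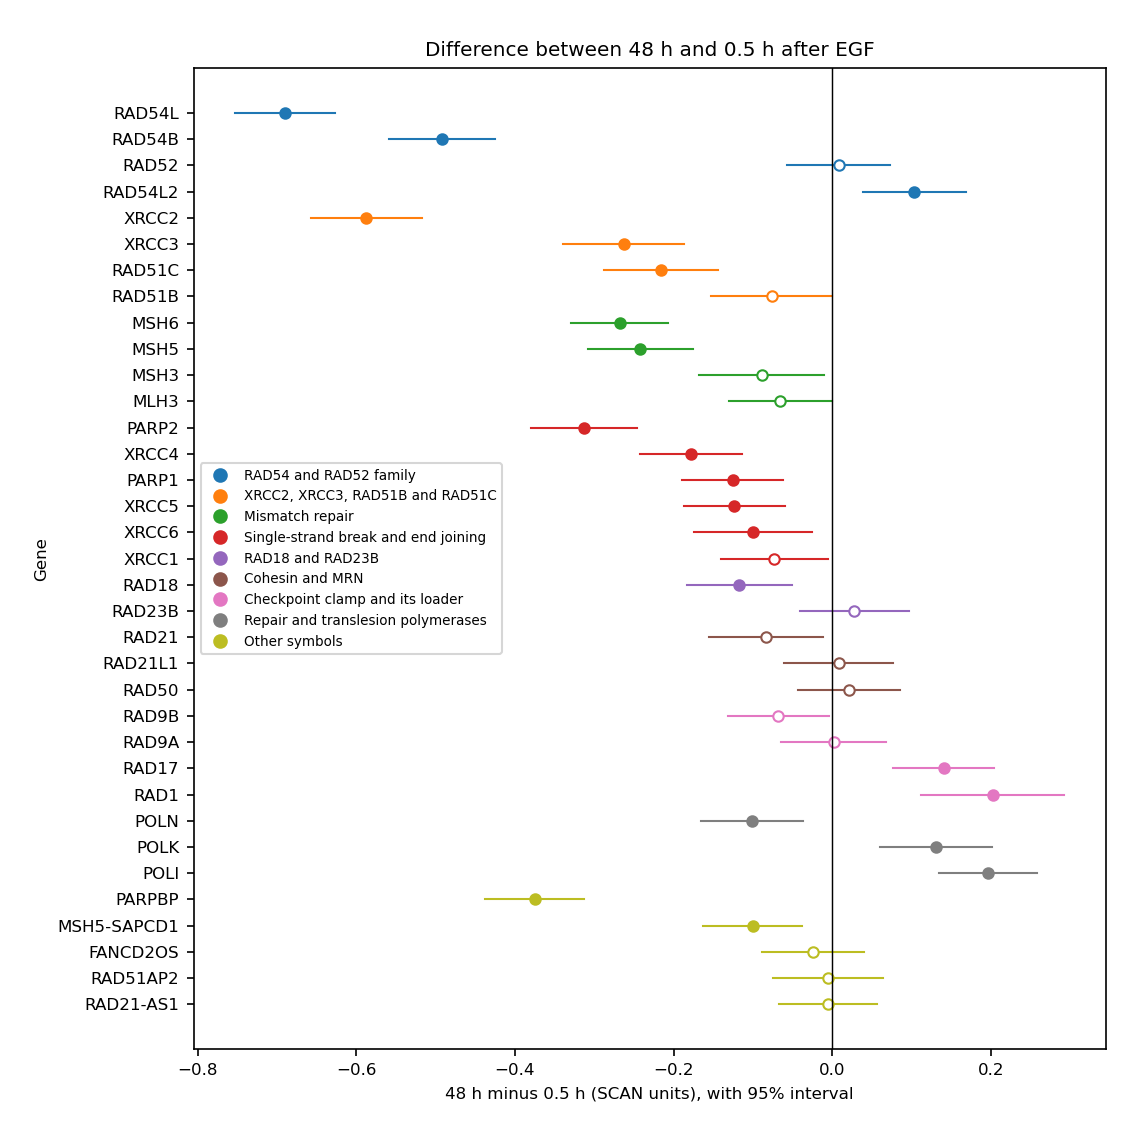
Difference in score between 48 h (3 arrays) and 0.5 h (2 arrays) for each of the 35 genes, in SCAN units, with bars for the 95% interval of limma, filled points for genes called at an adjusted p under 0.05 and colours for the role. RAD54L at -0.69, XRCC2 at -0.59, RAD54B at -0.49 and PARPBP at -0.38 lie farthest left, and RAD1 and POLI at 0.20 farthest right.

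PARPBP, also known as PARI, is a PCNA-binding protein that restrains recombination, and is not itself a PARP enzyme. Its score was 0.93 and 0.90 at 0.5 h, 0.99 at 1 h, 0.86 at 2 h, 1.02 at 4 h, 0.97 at 6 h, 0.94 at 8 h, 0.87 at 12 h and 0.81 at 18 h. It was 0.84, 0.81 and 0.81 at 24 h, and 0.52, 0.54 and 0.56 at 48 h. Most of its change thus came after 24 h, -0.28 (SE 0.03, adjusted p = 5.5e-07), against -0.10 before (SE 0.03, adjusted p = 0.034). The earlier call was lost without either 0.5 h array or without 24 h replicate 2 or 3, where adjusted p was 0.066 to 0.25. Whether the steps before and after 24 h differ was not tested for any gene.

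In mismatch repair, MSH6, which recognises mispaired bases, and MSH5, a partner of MSH4 in meiotic crossing over, fell. MSH6 scored 1.45 and 1.43 at 0.5 h, 1.50 at 1 h, 1.40 at 2 h, 1.44 at 4 h, 1.43 at 6 h, 1.38 at 8 h, 1.35 at 12 h and 1.15 at 18 h. It scored 1.12, 1.15 and 1.13 at 24 h, and 1.16, 1.19 and 1.16 at 48 h. It had reached its 24 h level on the 18 h array, with -0.31 between 0.5 h and 24 h (SE 0.03, adjusted p = 9.7e-07). Between 24 h and 48 h its difference was 0.04 (95% interval -0.02 to 0.09, adjusted p = 0.42).

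MSH5 stepped down in both intervals, from 1.34 and 1.41 at 0.5 h over 1.25, 1.26 and 1.24 at 24 h to 1.17, 1.12 and 1.11 at 48 h. The whole fall was 0.24 (SE 0.03, adjusted p = 1.0e-05). A second MSH5 probe set gave -0.22 and was also called, but its change after 24 h had an adjusted p of 0.055 in the fit of all probe sets, against 0.020 for the first. MSH5 lies within the readthrough gene MSH5-SAPCD1, so their probe sets may share signal. MSH5-SAPCD1 differed by -0.10 (adjusted p = 0.015) and lost the call without 0.5 h replicate 3 (adjusted p = 0.12). It has 5 probe sets, of which 4 held identical values and the other was not called (adjusted p = 0.11, in the fit of all probe sets).

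MSH3, which recognises small loops, had -0.09 and was not called (adjusted p = 0.086), with 0.5 h arrays far apart at 1.37 and 1.50. Without 0.5 h replicate 1 it was called (adjusted p = 0.015). MLH3, a MutL protein that acts in mismatch repair and crossing over, had 1.12 and 1.17 at 0.5 h, 1.14, 1.19 and 1.19 at 24 h, and 1.10, 1.06 and 1.08 at 48 h. MLH3 differed by -0.07 between 0.5 h and 48 h (adjusted p = 0.13), and of the 3 pairs of replicated times only 24 h and 48 h gave a call, a fall of 0.09 (adjusted p = 0.037). That call was lost without 24 h replicate 2 or 3 or 48 h replicate 2 or 3 (adjusted p of 0.098 to 0.12), and the 2 other scalings gave an adjusted p of 0.077 and 0.063. The spline over all times also called MLH3 (adjusted p = 0.025).

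**Figure D3:**
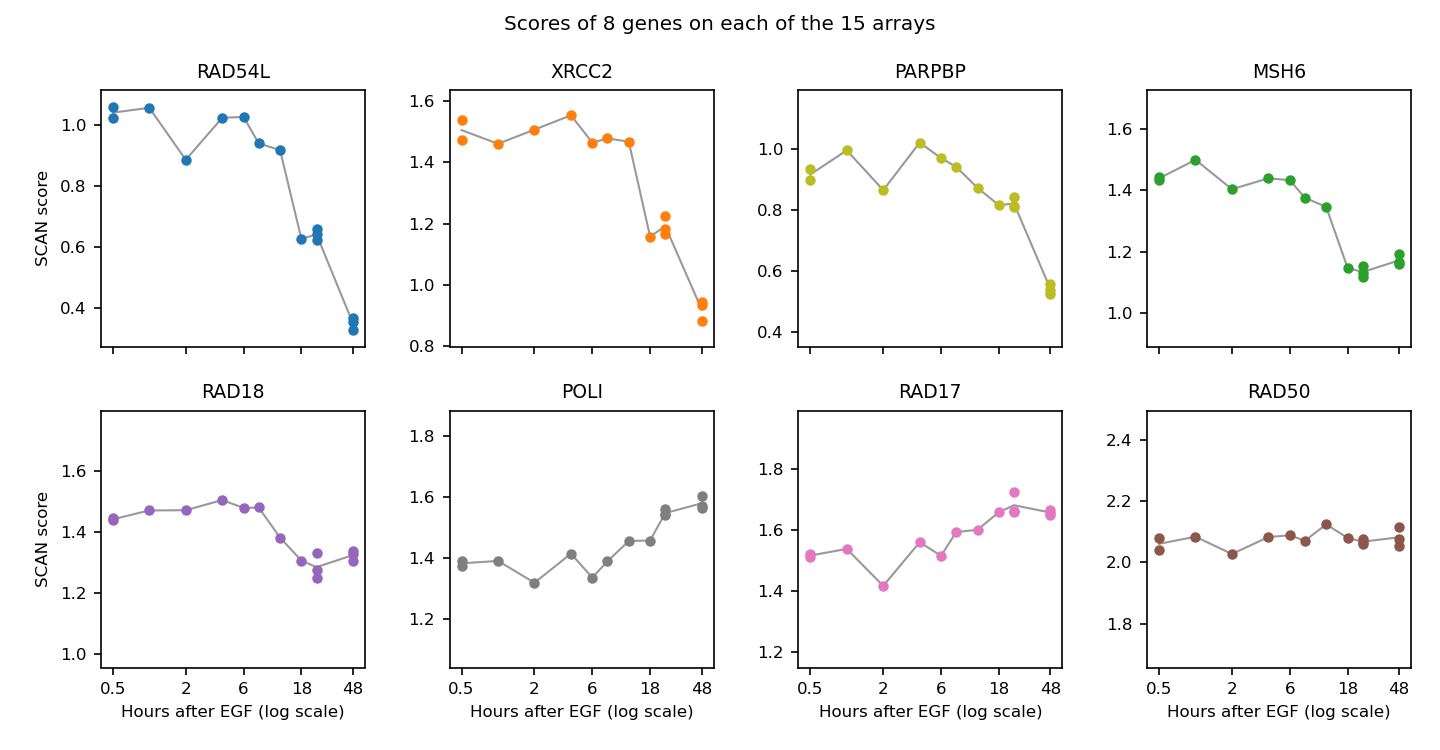
Scores of 8 genes on each of the 15 arrays (points) against hours after EGF on a log scale, with a line through the mean of each time. All panels span the same number of SCAN units. RAD54L and XRCC2 step down after 12 h and again after 24 h, PARPBP mainly after 24 h, MSH6 and RAD18 once, while POLI and RAD17 rise and RAD50 stays between 2.03 and 2.12.

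Of the 6 genes of single-strand break repair and end joining, 5 fell to 48 h and none rose, against 13.1% lower and 15.5% higher over all named genes, and the median difference was -0.12. PARP2, which like PARP1 makes ADP-ribose chains at broken DNA, scored 1.29 and 1.35 at 0.5 h, 1.15, 1.19 and 1.13 at 24 h, and 1.02, 0.98 and 1.03 at 48 h. PARP2 fell by 0.31 (SE 0.03, adjusted p = 4.4e-07), and the 3 times did not overlap. PARP1 had 1.60 and 1.57 at 0.5 h, 1.47, 1.49 and 1.50 at 24 h, and 1.49, 1.47 and 1.43 at 48 h. The fall of PARP1 was smaller, 0.13 (SE 0.03, adjusted p = 0.0041), and its adjusted p was 0.053 without 0.5 h replicate 1.

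XRCC4, the scaffold of DNA ligase IV in end joining, had 1.60 and 1.61 at 0.5 h, 1.47 at 18 h, 1.55, 1.54 and 1.60 at 24 h, and 1.40, 1.43 and 1.44 at 48 h. Its fall of 0.18 (SE 0.03, adjusted p = 0.00021) lay mainly after 24 h, at -0.13 (adjusted p = 0.0024). XRCC5 and XRCC6 encode the Ku80 and Ku70 subunits that bind broken ends. XRCC5 fell by 0.12 (adjusted p = 0.0043), and all of its arrays from 18 h on, at 2.75 to 2.84, lay below those to 12 h, at 2.89 to 2.96. XRCC6 fell by 0.10 (adjusted p = 0.041), a call lost without 0.5 h replicate 3 (difference -0.05, adjusted p = 0.42), 48 h replicate 1 (0.062) or 48 h replicate 3 (0.16). XRCC1, the scaffold of single-strand break repair, differed by -0.07 (adjusted p = 0.10). It was highest at 18 h, at 1.52, and its fall of 0.09 after 24 h (adjusted p = 0.043) was lost without any one of the 0.5 h, 24 h or 48 h arrays (adjusted p of 0.0501 to 0.18).

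RAD18, the ubiquitin ligase that marks PCNA for translesion synthesis, had 1.44 and 1.44 at 0.5 h, 1.47 to 1.50 from 1 h to 8 h, 1.38 at 12 h and 1.31 at 18 h. It scored 1.28, 1.33 and 1.25 at 24 h, and 1.31, 1.33 and 1.34 at 48 h. RAD18 fell by 0.16 to 24 h (SE 0.03, adjusted p = 0.0017) and differed by 0.04 afterwards (95% interval -0.02 to 0.10). At 48 h it was still 0.12 below 0.5 h (adjusted p = 0.0085), and without 0.5 h replicate 3 the adjusted p was 0.060. RAD23B, a partner of XPC in finding bulky damage, gave 0.03 (95% interval -0.04 to 0.10) and was not called.

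The translesion polymerases POLI and POLK rose, and POLN, a polymerase of another family, fell. POLI scored 1.37 and 1.39 at 0.5 h, 1.39 at 1 h, 1.32 at 2 h, 1.41 at 4 h, 1.34 at 6 h, 1.39 at 8 h, 1.45 at 12 h and 1.46 at 18 h. It reached 1.54, 1.54 and 1.56 at 24 h, and 1.60, 1.56 and 1.57 at 48 h. Its rise to 48 h was 0.20 (SE 0.03, adjusted p = 4.5e-05), of which 0.16 was present at 24 h (adjusted p = 0.00064).

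POLK stood at 0.94 and 0.99 at 0.5 h, 1.10, 1.00 and 1.03 at 24 h, and 1.07, 1.09 and 1.12 at 48 h, with its highest value, 1.17, at 18 h. The difference of 0.13 (adjusted p = 0.0061) was lost without 0.5 h replicate 1 (adjusted p = 0.093) and with the mean of its probe sets (0.07, adjusted p = 0.093). Its second probe set differed by 0.00 and was not called. POLN fell by 0.10 (adjusted p = 0.018), and this call was lost without 0.5 h replicate 3 (-0.07, adjusted p = 0.21) or 48 h replicate 3 (adjusted p = 0.059).

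RAD17 loads the ring of RAD9, HUS1 and RAD1 onto DNA at stalled forks, where it helps activate the ATR kinase. RAD17 scored 1.51 and 1.52 at 0.5 h, 1.54 at 1 h, 1.42 at 2 h, 1.56 at 4 h, 1.52 at 6 h, 1.59 at 8 h, 1.60 at 12 h and 1.66 at 18 h. It scored 1.72, 1.66 and 1.66 at 24 h, and 1.66, 1.67 and 1.65 at 48 h. The rise was 0.16 at 24 h (SE 0.03, adjusted p = 0.0009) and 0.14 at 48 h (SE 0.03, adjusted p = 0.0017). RAD1 had 1.23 and 1.16 at 0.5 h, 1.33, 1.31 and 1.29 at 24 h, and 1.45, 1.45 and 1.28 at 48 h, a rise of 0.20 (SE 0.04, adjusted p = 0.0014) with a wide spread at 48 h. Its arrays to 12 h, at 1.11 to 1.29 with 1.29 at both 1 h and 4 h, overlapped those from 18 h on, at 1.27 to 1.45. The other ring genes, RAD9A at 0.00 (95% interval -0.06 to 0.07) and RAD9B at -0.07 (adjusted p = 0.11), were not called.

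Among cohesin and MRN genes none of 3 was called by limma between 0.5 h and 48 h, against 13.1% lower and 15.5% higher over all named genes. At an unadjusted p under 0.05 was 1 of the 3, against 5529 of all 14675 named genes. RAD21, the cohesin subunit that closes the ring, differed by -0.08 (adjusted p = 0.078), and was called without 48 h replicate 1 (-0.11, adjusted p = 0.031). The spline over the whole time course, described further on, did call RAD21 (adjusted p = 0.021). RAD50, of the MRN complex that senses double-strand breaks, gave 0.02 (95% interval -0.04 to 0.09) and stayed between 2.03 and 2.12 on all 15 arrays. The meiotic RAD21L1 differed by 0.01 and had scores of -0.13 to -0.04.

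The remaining symbols without a role group were FANCD2OS, on the strand opposite FANCD2, RAD21-AS1, antisense to RAD21, and RAD51AP2, with differences of -0.02, -0.01 and -0.01 and no call. These 3 genes, with RAD21L1 and RAD9B, made up the 5 members with a mean score under 0.2.

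Between 0.5 h and 24 h, 10 members fell and 3 rose, which is 28.6% and 8.57% of them, against 7.26% lower and 9.96% higher over all named genes. With each array centred on its median, the calls over all named genes turned from 1065 lower and 1461 higher to 1335 lower and 1187 higher, and those of the members became 12 lower and 3 higher. Without 0.5 h replicate 1 the higher calls over all named genes numbered 787 and the lower 685, and without 0.5 h replicate 3 they numbered 1013 and 672. Between 24 h and 48 h, 11 members fell (31.4%) and none rose, against 6.68% lower and 6.19% higher over all named genes. With centred arrays or quantile normalisation 8 members fell, without RAD51C, XRCC1 and MLH3, and the calls over all named genes turned from 980 lower and 909 higher to 823 and 1092 with centring and to 869 and 1014 with quantiles. By limma 14 of 35 members had an unadjusted p under 0.05 in this interval, against 3505 of 14675 named genes, and 2 of the 14 were higher. Without 48 h replicate 3 RAD1 was called higher (0.14, adjusted p = 0.0070). Both intervals use the 24 h arrays, and their values are therefore set side by side without a correlation.

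Called lower in both intervals were 7 of the 35 members, RAD54L, XRCC2, RAD54B, PARPBP, PARP2, MSH5 and RAD51C, against 2.24% of all named genes. MSH6, RAD18 and PARP1 (8.57%) were called lower before 24 h and not after it, against 5.02%, and XRCC3, XRCC4, MLH3 and XRCC1 (11.4%) after it and not before, against 4.44%. XRCC3 stood at the threshold before 24 h, with -0.11 (adjusted p = 0.052), and passed it in 6 of 15 alternative fits. Besides the calls of PARPBP, MLH3 and XRCC1 described above, those that were lost without 1 array were, before 24 h, MSH5 (adjusted p = 0.15 without 0.5 h replicate 3), RAD51C (0.25 without 0.5 h replicate 1 and 0.11 without 24 h replicate 3), RAD54L2 (0.077 without 0.5 h replicate 1) and PARP1 (0.054 to 0.19 without either 0.5 h array or 24 h replicate 1 or 2). After 24 h, RAD51C had an adjusted p of 0.068 to 0.17 without 24 h replicate 1 or 2 or 48 h replicate 1 or 3. It was 0.052 with centred arrays and 0.068 with quantile normalisation, where XRCC1 had 0.074 and 0.055.

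**Figure D4:**
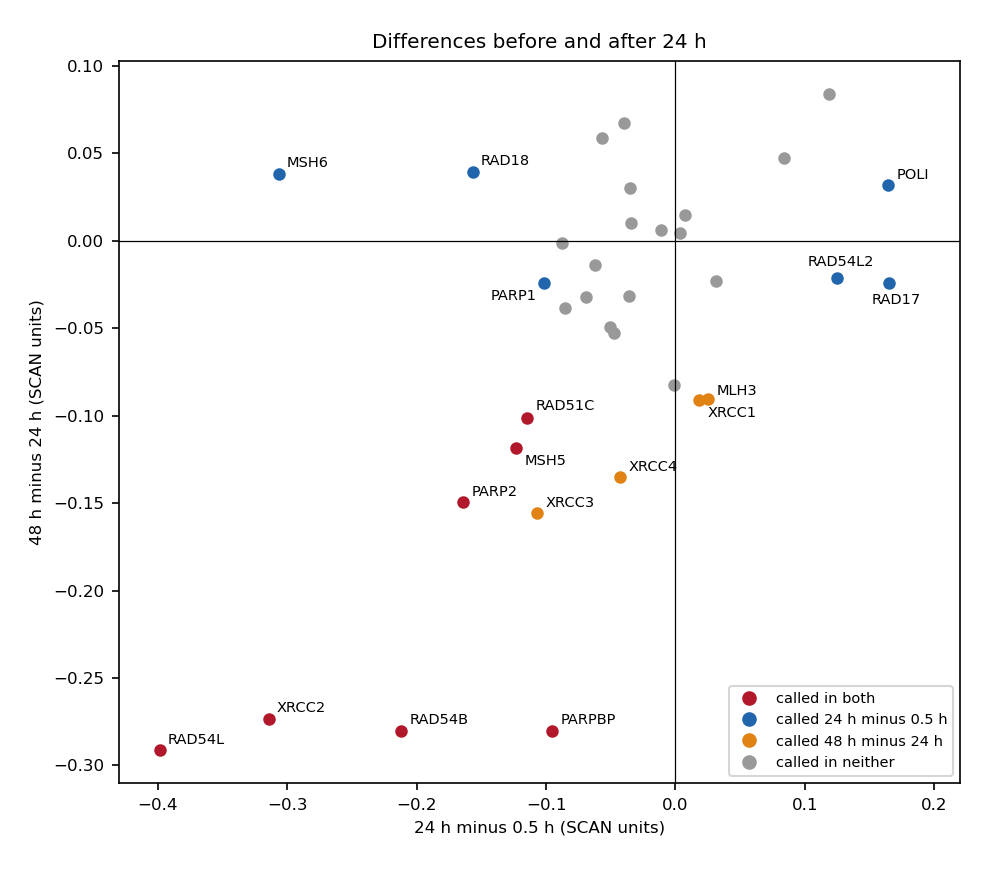
Difference between 24 h and 0.5 h (horizontal axis) and between 48 h and 24 h (vertical axis) for each of the 35 genes, both in SCAN units, with colours for the interval in which a gene was called and names for the called genes. RAD54L, XRCC2 and RAD54B are low on both axes, MSH6 and RAD18 only on the horizontal one, and XRCC4 mainly on the vertical one. The 24 h arrays enter both axes.

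Between the early window (0.5, 1 and 2 h, 4 arrays) and the middle window (4, 6, 8 and 12 h, 4 arrays) none of the 35 members was called by limma, against 1.58% of all named genes. An unadjusted p under 0.05 was found in 1897 of all 14675 named genes and in 3 of the 35 members. These were RAD52 (0.09, adjusted p = 0.12), RAD17 (0.07, adjusted p = 0.27) and POLK (0.09, adjusted p = 0.29), which all had their lowest or second lowest score on the 2 h array. Arrays of one time share its deviation from the window mean, so these p-values can be too small.

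Over the whole course, a spline in log2 time with 3 degrees of freedom called 24 of 35 members (68.6%), against 33.9% of all named genes. From the first to the last time the fitted curve fell in 19 of them and rose in 5. The peak score of the study sets stimulated against control cells at each time. With no control cells here a changed form was used, the largest distance of a time's mean from the gene's mean over all 10 times, and it was past 2 times the noise between replicates in 13 members (37.1%), against 15.6% of all named genes. The peak lay at 48 h or 24 h in 11 of these, and for RAD1 and RAD17 it was a low value on the single 2 h array.

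Outside these families, genes of the same pathways fell more often than they rose. Of 113 symbols listed for this purpose 61 were measured under a name, and 34 of the 61 fell to 48 h, 3 rose and 24 were not called, with a median of -0.12. The counts of these lists stand against 13.1% lower and 15.5% higher over all named genes. In recombination and end resection 11 of 15 fell and none rose (median -0.33), led by the exonuclease EXO1 at -0.80 and by the recombination factor RAD51AP1 at -0.66, while MRE11, the nuclease that works with RAD50, differed by 0.00. In checkpoint signalling 8 of 11 fell and none rose (median -0.32), with the fork protection factors TIMELESS at -0.62 and TIPIN at -0.50 and the kinase CHEK1 at -0.35. The clamp subunit HUS1, the partner of RAD1 and RAD9A, had -0.07 and was not called.

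Of the partners of the Fanconi proteins 5 of 9 fell, with the E2 enzyme UBE2T at -0.63 and the deubiquitinase USP1 at -0.48. Mismatch repair partners fell in 3 of 4, PCNA by 0.71, EXO1 as above and PMS1 by 0.09, whereas PMS2 had 0.08 and was not called. PCNA, the sliding clamp, and the flap nuclease FEN1 (-0.43) were both of the 2 measured fork enzymes. Base excision was mixed, with 6 of 15 lower, among them the glycosylases NEIL3 at -0.58 and UNG at -0.47, and 2 higher, NEIL1 and MPG, both by 0.09. Of the end joining list 1 of 4 fell, RIF1 by 0.23, and of the damage tolerance list HLTF fell by 0.22 and UBE2B, the partner of RAD18, rose by 0.11, with 3 of 5 not called. None of 17 nucleotide excision genes was measured under a name. Of a list of interferon-induced genes, made for the PARP family, 5 of 6 rose, IRF7 by 0.44 and DTX3L by 0.33. IFIT3 was not called at 48 h and was lower at 24 h than at 0.5 h (-0.20, limma adjusted p = 0.0027). PARP1 and PARP2 were the only PARP enzymes among the members, so no comparison is drawn from this list.

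**Figure D5:**
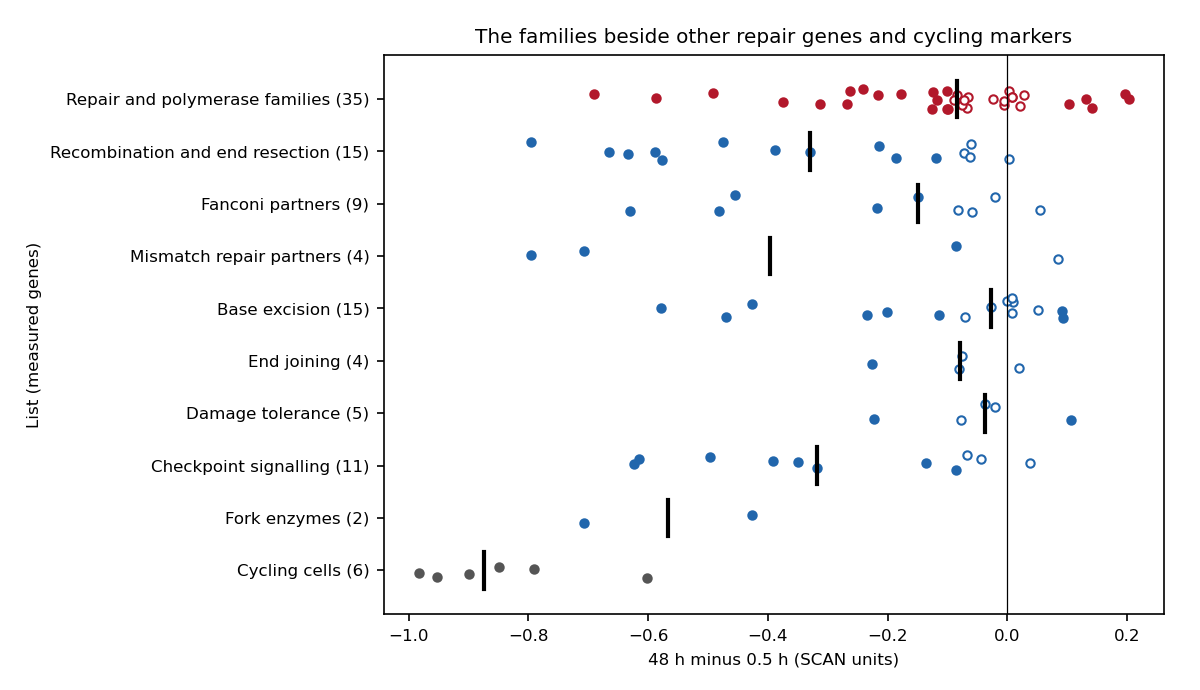
Difference between 48 h and 0.5 h, in SCAN units, for the 35 members (top, red), for 8 lists of other repair and replication genes (blue) and for 6 markers of cycling cells (grey), with filled points for called genes, black bars for the median and the number of measured genes in brackets. The median is -0.08 for the members, -0.33 for recombination and end resection, and -0.87 for the cycling markers.

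Set out by interval, the lists also differed in timing. Between 0.5 h and 24 h the median was -0.16 for recombination and end resection and -0.20 for the cycling markers, and between 24 h and 48 h it was -0.12 and -0.71. The cycling markers were not alike in this, since MKI67 fell by 0.23 before and by 0.75 after 24 h, and MCM2 by 0.37 before and by 0.23 after. PCNA fell by 0.42 before and by 0.29 after. Among the members, PARPBP had its larger step after 24 h, as MKI67 did, and RAD54L before it, as PCNA and MCM2 did. These values are a description, with no test of the difference between the steps.

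Promoter sequence was read for the letters of motifs known from cell cycle genes, in the 250 bases before each RefSeq start site (GRCh38.p14). Of the 35 members 30 matched a RefSeq promoter, as did 14 of the 16 that fell to 48 h. An exact E2F motif (TTTCCCGC or TTTGGCGC, both strands, overlaps allowed) was in none of these 14, in 2 of the 16 other members (12.5%) and in 2.36% of all 27305 genes. The CHR letters TTTGAA were in 3 of 14 (21.4%), 3 of 16 (18.8%) and 16.1%, and CCAAT, bound by NF-Y, in 7 of 14 (50.0%), 6 of 16 (37.5%) and 37.0%. Over the 10707 measured genes with a promoter the shares were 3.23% for E2F, 13.5% for TTTGAA and 39.9% for CCAAT. MSH5 and MSH5-SAPCD1 share most of this sequence and count as separate genes here. A match is no proof of a site, and a missing match says only that these letters are not in this window. The members with E2F letters were MSH3 and POLI, neither of which fell to 48 h. XRCC2, PARP2, RAD51C, RAD18, PARP1, XRCC4 and POLN fell and held none of the letters, and RAD54B and XRCC5 had no matched promoter. The stretches below show the E2F letters and, for members that fell in unlike ways, CCAAT in RAD54L and MSH6 and CCAAT with TTTGAA in PARPBP. They come from the most upstream start, and the other MSH6 starts held no motif. They run 5′ to 3′ on the plus strand with the motif in capitals (ATTGG is CCAAT and GCGGGAAA is TTTCCCGC on the other strand).
RAD54L, chr1:46247603-46247647: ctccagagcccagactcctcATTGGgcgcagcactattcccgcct
PARPBP, chr12:102120129-102120182: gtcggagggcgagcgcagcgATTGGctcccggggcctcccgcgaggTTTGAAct
MSH6, chr2:47783078-47783122: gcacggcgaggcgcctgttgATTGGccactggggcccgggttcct
MSH3, chr5:80654525-80654572: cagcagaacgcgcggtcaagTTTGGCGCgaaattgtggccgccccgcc
POLI, chr18:54269341-54269388: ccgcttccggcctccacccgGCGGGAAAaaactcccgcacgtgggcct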

How the data were processed

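RNA of H1975 cells was hybridised by the authors to 15 Affymetrix arrays. The deposited values are SCAN scores, which the authors computed per array, with no step between arrays; they also left out arrays judged to be outliers. The SCAN version was not given in these sources. The platform annotation names 15426 of 39937 probe sets. Symbols were updated through RefSeq (GRCh38.p14), and no filter on dim probe sets was used. Time was fitted as a 10-level factor in limma 3.58.1 (R 4.3.3), with 5 residual degrees of freedom from the replicated times, windows as a 3-level factor and the course as a spline. For each gene limma drew the spread toward that of all genes, with 12.43 prior degrees of freedom in the time fit. An SE or p-value therefore does not rest on the replicates of that gene alone. Moderated t tests were two-sided, and the spline used a moderated F test. The fits were also run on simulated scores with independent noise and no array effects. The outcome is not given here, and that run does not cover shifts of whole arrays.

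The members and all gene lists were chosen with earlier results of these data known. Genes named with values were, in each role group, those with the largest and smallest difference, all that rose, the 12 largest differences, the 5 largest of each interval, the 3 smallest p of the windows and those whose probe sets differ. The other members were added after their values were seen, so that each role group is complete.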

Additional observations from a re-analysis of the deposited data

How the results depend on the processing

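For the tests between replicated times, 15 alternative fits were run, and no called member changed sign in any. Of the members called, 14 of 21 kept the call in every fit for 48 h against 0.5 h, 8 of 13 for 24 h against 0.5 h and 8 of 11 for 48 h against 24 h. Leaving out each array in turn gave 12 to 17 members lower and 3 to 5 higher at 48 h than at 0.5 h, 7 to 11 lower and 2 to 4 higher at 24 h, and 8 to 10 lower and 0 to 1 higher between 24 h and 48 h. The spline called 13 members and 1842 of all genes on replicate 1 arrays alone, which are fewer, against 24 and 4970 on all arrays. Past 3 times the peak noise were 5 members and 850 of all genes, against 13 and 2296 past 2 times.

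Same-numbered arrays did not deviate together (correlations of -0.030 to 0.030), so the numbers were not taken as pairs. With the replicate block, 16 members fell and 5 rose at 48 h against 0.5 h, 9 fell and 3 rose at 24 h, 11 fell after 24 h, 19 were called by the spline and none between the windows, where the calls over all named genes went from 232 to 124. PARPBP lost its call before 24 h under the block (adjusted p = 0.070). In the windows replicate 1 arrays alone called 52 genes and time as a random block 184, and quantile normalisation turned their split from 138 higher and 94 lower to 93 and 129.

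Only 0.5, 24 and 48 h hold replicates, and 0.5 h holds 2 arrays, so small changes at the other times cannot be told from array noise. The number of arrays limits the precision, and a score near 0 has no test of presence.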
